A study of Mus musculus with 2 samples.

Results

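Mir28a, Mir151 and Mir708 are microRNA genes that are held to descend from LINE2 repeats, old transposable elements whose inverted copies can fold into a hairpin. They were chosen by name as related genes in introns of protein-coding hosts, by no measured value, though earlier results of these data were known. They are 3 of the 1973 microRNA genes counted. A microRNA is cut from such a hairpin, and its 5p or 3p arm then guides repression of messenger RNAs that match its seed, which is read here as bases 2 to 8 of the arm. In human tumours miR-28 and miR-708 have been studied as restraints on growth and spread, and miR-151 has been studied with the kinase of its host gene in cell migration.

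The data are from 1 group, limb tissue of B6NCrl mouse embryos at embryonic day 12.5, with no treatment or mutation named in the labels. Both libraries are pools over embryos of both sexes, 68 embryos for replicate 2 and 88 for replicate 1, and they hold RNA shorter than 30 nucleotides. That the genes descend from LINE2 is background and was not tested. The question such a design addresses is at what level each gene gave reads and how far the replicates differ. Nothing below compares conditions.

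Replicate 2 gave 3604284 counts on the own strand of microRNA genes, and replicate 1 gave 4525636. Levels are CPM, counts per 1000000 of these counts, with means ± SD over the 2 replicates (n = 2). The tissue label was checked with 6 microRNAs of limb patterning, cartilage, muscle, ectoderm and mesenchyme. All 6 lay among the 68 highest genes, from Mir206 of skeletal muscle at 2347 ± 213 CPM to Mir196b of the HoxA cluster at 86831 ± 9376 CPM. Other microRNAs of these kinds varied. Mir1a-1 of muscle was at 1.22 CPM, with 0 counts in replicate 2. Mir133b of muscle was at 45.1 CPM, and Mir10a of a Hox cluster was at 7497 CPM. Mir1a-1 and Mir133b each have at least 20 nucleotides in common with another microRNA gene. The 6 were listed with earlier results of these data known, so they are a weak check of the label. Reads that mapped to several places, 23.7% of replicate 2 and 27.2% of replicate 1, are in no gene's count.

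The mature sequences show how Mir28a and Mir708 are related. RefSeq (GRCm38.p6) matched 2 of the 3 genes, Mir28a and Mir708, each with both arms. Mir151 had no match there, so its arms were not compared and their likeness to the others was not tested. The sequences are shown because the 5p arms carry the same seed, and Mir28b is added as a relative by name. Capitals mark the seed, and each is written 5′ to 3′.
miR-28a-5p: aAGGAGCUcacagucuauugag
miR-708-5p: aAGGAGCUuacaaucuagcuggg
miR-28b: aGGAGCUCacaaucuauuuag
miR-28a-3p: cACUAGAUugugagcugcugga
miR-708-3p: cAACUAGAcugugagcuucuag

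The 5p arms of Mir28a and Mir708 were alike in their first 8 bases, AAGGAGCU, and in 16 of 22 bases overall. With positions counted from 1 at the 5′ end of miR-28a-5p, the changes to miR-708-5p were C9U, G13A, U18G, U19C, G20U and A21G. Of 1738 mature mouse sequences in the RefSeq table, 2 (0.115%) carried the seed AGGAGCU, and they were these 5p arms. The whole stretch AAGGAGCU, searched on the strand as written, stood in 3 (0.173%), of which the other was miR-7663-3p.

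The 3p arms of Mir28a and Mir708 were also alike but shifted by 1 base, so their seeds differ. They matched in 17 of 21 aligned bases. Counted on miR-28a-3p, the changes were C1A, U8C, G17U and G20A, each opposite the base of miR-708-3p one position further on. The 5p arm of one gene also resembled the reverse complement of the other gene's 3p arm. Against the reverse complement of miR-708-3p, miR-28a-5p matched in 16 of 21 bases with an unbroken run of 13, AGCUCACAGUCUA. Against that of its own 3p arm it matched in 16 of 20 bases with a longest run of 8. Mir28b matched miR-28a-5p in 19 of 21 bases but began 1 base later, which gives it another seed. The counts cover whole hairpins, so levels of the single arms are not known.

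All 3 genes lie on the strand of their host (coordinates of mm10, places in transcripts from GENCODE M21). Mir151 (ENSMUSG00000065612.1, chr15:73254815-73254882, minus strand, 68 nucleotides) lies in intron 22 of 31 of Ptk2-201, a transcript of the gene for focal adhesion kinase, which signals from cell contacts with the matrix. It sits 2.15 kb past the exon before it, in an intron of 14.6 kb. Mir708 (ENSMUSG00000076143.1, chr7:96249424-96249532, plus strand, 109 nucleotides) lies in intron 1 of 32 of Tenm4-202, from the gene for a teneurin, a large transmembrane protein of cell adhesion. Mir28a (ENSMUSG00000065494.1, chr16:24827855-24827940, plus strand, 86 nucleotides) lies in intron 8 of 12 of Lpp-201, from the gene for a LIM-domain protein of focal adhesions. The introns of Mir708 and Mir28a span 143 and 82.8 kb.

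**Figure D1:**
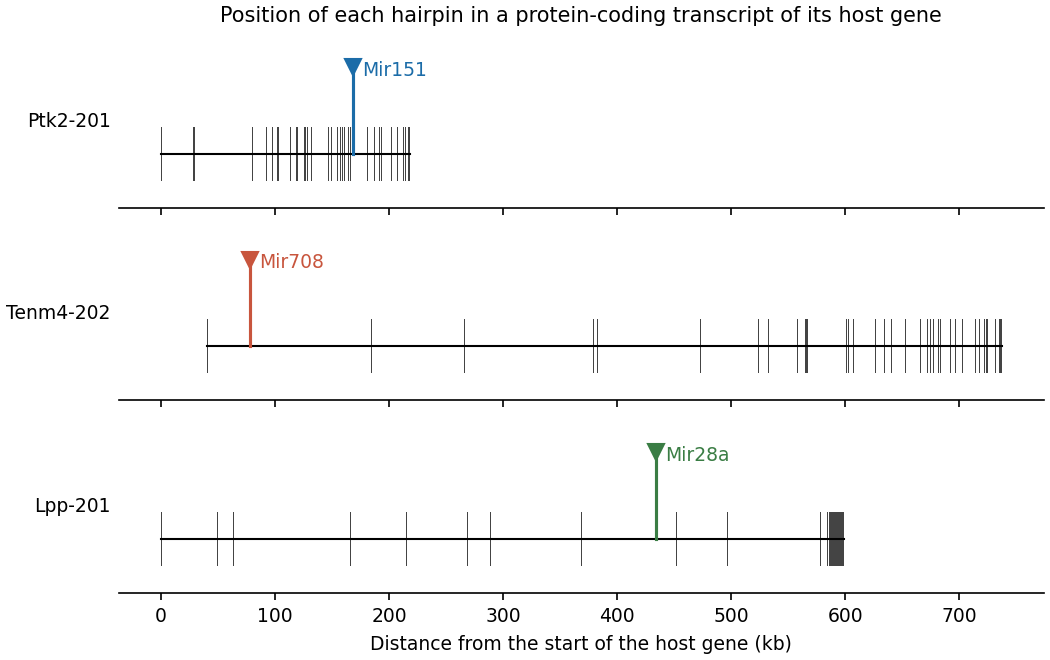
Position of each hairpin (triangle) in a protein-coding transcript of its host gene, with distance from the start of the host gene in kb on the x axis. Bars are exons, drawn at least 0.9 kb wide so that they can be seen, and lines are introns. Mir708 lies 78.2 kb into Tenm4, Mir151 168 kb into Ptk2 and Mir28a 434 kb into Lpp.

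No other microRNA gene is annotated inside Lpp or Ptk2 in this annotation. Tenm4 holds Mir6394 on the same strand, and Mir6394 had 0 counts in both libraries, which allows up to 0.832 CPM in replicate 2 and 0.663 CPM in replicate 1. Mir151 also lies within 1700085D07Rik, an antisense RNA gene on the other strand.

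Mir151 was the highest of the 3 genes. It had 23720 counts in replicate 2, or 6581 CPM (95% Clopper-Pearson interval 6498 to 6665), and 24930 counts in replicate 1, or 5509 CPM (5441 to 5577). Its mean was 6045 ± 758 CPM, and it ranked 36th of 1973 genes.

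Mir708, which shares its 5p seed with Mir28a, came next. It had 7001 counts in replicate 2, or 1942 CPM (1897 to 1988), and 10162 counts in replicate 1, or 2245 CPM (2202 to 2289). The mean was 2094 ± 214 CPM, at rank 70.

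Mir28a was the lowest. It had 5693 counts in replicate 2, or 1579.5 CPM (1539 to 1621), and 5111 counts in replicate 1, or 1129 CPM (1099 to 1161), with a mean of 1354 ± 318 CPM at rank 86. The intervals of these 3 genes take in counting error and nothing else, because each is drawn from the counts of 1 library. PCR copies of a molecule are counted again, so the intervals may be too narrow even for counting error. For each gene the intervals of the 2 libraries did not overlap.

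**Figure D2:**
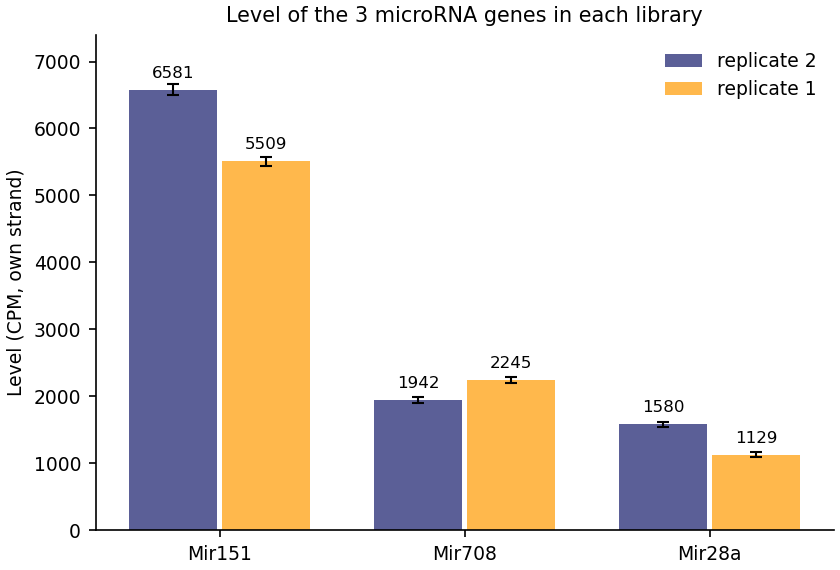
Level of Mir151, Mir708 and Mir28a in CPM on the y axis, with a bar for each library, replicate 2 beside replicate 1, and 95% Clopper-Pearson intervals for counting error. Mir151 stands highest in both libraries, and Mir28a stands lowest in both, at 1579.5 CPM in replicate 2 and 1129 CPM in replicate 1.

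The order of the 3 genes was the same in both libraries. Mir151 exceeded Mir708 by 3.39 times (3.30 to 3.48) in replicate 2 and 2.45 times (2.40 to 2.51) in replicate 1, and it exceeded Mir28a by 4.17 times (4.05 to 4.29) in replicate 2 and 4.88 times (4.73 to 5.03) in replicate 1. The step between Mir708 and Mir28a was smaller, 1.23 times (1.19 to 1.27) in replicate 2 and 1.99 times (1.92 to 2.06) in replicate 1. The means of Mir708 and Mir28a lay 739 CPM apart, against 533 CPM for the sum of their SDs. A two-sided exact permutation test of each ratio over the 2 libraries gave p = 0.5, the smallest it allows, so the order could not be tested at the threshold this way. Of the reads of the 3 genes, Mir151 gave 65.1% in replicate 2 and 62.0% in replicate 1. Together the genes held 1.01% of all counts in replicate 2 (1.000 to 1.021) and 0.888% in replicate 1 (0.880 to 0.897).

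For Mir708 and Mir28a the levels are uncertain, because part of each 5p arm also stands elsewhere in the genome. Reads that mapped to several places are in no gene's count, so any such 5p reads are missing from these levels and ratios. Mir708 shares 23 nucleotides with Gm23134, an annotated microRNA gene in an intron of Blcap (chr2:157562361-157562447, minus strand), and the stretch covers 22 of the 23 bases of miR-708-5p. Gm23134 itself had 17 counts in replicate 2 and 33 in replicate 1. Mir28a shares 20 nucleotides with Mir28c (chr15:53614205-53614279, minus strand), a relative by name that is not analysed here, and these are 20 of the 22 bases of miR-28a-5p. Neither stretch touches the 3p arm. In neither partner was the full 5p sequence found, and how many 5p reads mapped to several places was not tested. Mir151 shares no stretch of 20 nucleotides with another microRNA gene.

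Mir28b (chr8:73016512-73016591, plus strand), which has a seed of its own, was close to the limit of detection. It had 6 counts in replicate 2, or 1.66 CPM (0.611 to 3.62), and 11 counts in replicate 1, or 2.43 CPM (1.21 to 4.35). That is 0.105% of the Mir28a count in replicate 2 and 0.215% in replicate 1.

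Set against all microRNA genes, the 3 genes were in the upper part of the profile. The median over the 1973 genes was 0 CPM, 1256 of them had no count in either library, and 93 reached 1000 CPM in the mean, all 3 among them. Of the 1973 genes, 654 lie in an intron of a protein-coding gene on its strand, and in that class Mir151 ranked 15th, Mir708 24th and Mir28a 32nd. The class reached 10 CPM in both libraries in 101 of 654 genes (15.4%), against 286 of 1973 (14.5%) over all genes. Genes of the class were thus detected about as often as microRNA genes at large.

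**Figure D3:**
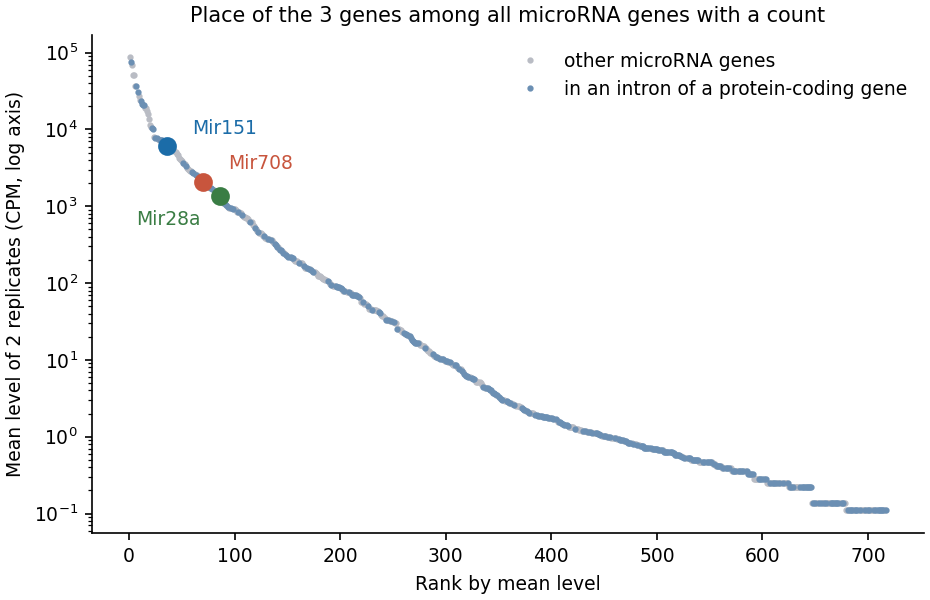
Mean CPM of 2 replicates (log axis) against rank for the microRNA genes with a count, with genes in introns of protein-coding hosts in blue. Mir151 stands at rank 36, Mir708 at rank 70 and Mir28a at rank 86, on the steep part of the curve.

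Each gene had neighbours with a mean no further from its own than the sum of the 2 SDs. This describes the spread and is not a test. The gene just above Mir151 was Mir296 at 6204 ± 138 CPM and the one just below was Mir181c, in an intron of Nanos3, at 6031 ± 679 CPM. In both libraries together, by the distance of log2(CPM + 1) over 2 libraries, the nearest to Mir151 were Mir92-1, at 7084 CPM in replicate 2 and 5555 in replicate 1, and Mir411, at 6060.0 CPM in replicate 2 and 5927 in replicate 1. Mir92-1 and Mir411 each have at least 20 nucleotides in common with another microRNA gene, which makes their levels uncertain. In all, 12 genes lay within the summed SDs of Mir151.

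Mir708 stood between Mir181a-1 (2132 ± 14 CPM) and Mir199b (1917 ± 192 CPM), which were also the nearest to it in both libraries together. Both share a stretch with another gene. Mir28a stood between Mir22 (1357 ± 122 CPM), in an exon of a Tlcd2 transcript, and Mir15b (1267 ± 126 CPM), in an intron of the condensin gene Smc4, and these were again its nearest genes. Within the summed SDs lay 15 genes for Mir708 and 21 for Mir28a.

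A list of 50 well-known microRNAs of host genes gave a further scale, and 48 of them had a row. In the annotation 41 of the 48 lie in an intron of a protein-coding gene. The list's median was 373 CPM, against 0 CPM over all genes, and 46 of 48 were at 10 CPM or more in both libraries. Its 5 highest genes were Mir335 of the imprinted gene Mest (76218 ± 6236 CPM), the cartilage microRNA Mir140 of Wwp2 (23899 ± 1020), Mir26b of Ctdsp1 (23448 ± 1113), Mir30e of Nfyc (20958 ± 3411) and Mir126a of the endothelial gene Egfl7 (18968 ± 624). All 3 LINE2 genes lay above the list's median: 10 listed genes stood higher than Mir151, 14 higher than Mir708 and 19 higher than Mir28a.

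Near Mir151, within 1.5 times of its mean, were 5 listed genes: Mir342 of Evl (7345 ± 523 CPM), Mir149 of Gpc1 (7266 ± 896), Mir423 of Nsrp1 (7242 ± 165.5), Mir483 of Igf2 (5718 ± 2314) and Mir21a of Vmp1 (4806 ± 381). Evl, like the host of Mir28a, encodes a protein of focal adhesions and the actin skeleton. Near Mir708 were 7, from Mir361 of Chm (2796 ± 540 CPM) and Mir532 of Clcn5 (2687 ± 57) through Mir101b, Mir98, Mir455 and Mir425 down to Mir107 of Pank1 (1568 ± 123). Near Mir28a were 7 as well. They were Mir101b of Rcl1 (1876 ± 102 CPM), Mir98 of Huwe1 (1876 ± 81), Mir455 of the collagen gene Col27a1 (1713 ± 442), Mir425 (1648 ± 225), Mir107, Mir15b and Mir139 of Pde2a (1091 ± 95). Mir101b and Mir107 share a stretch with another gene.

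**Figure D4:**
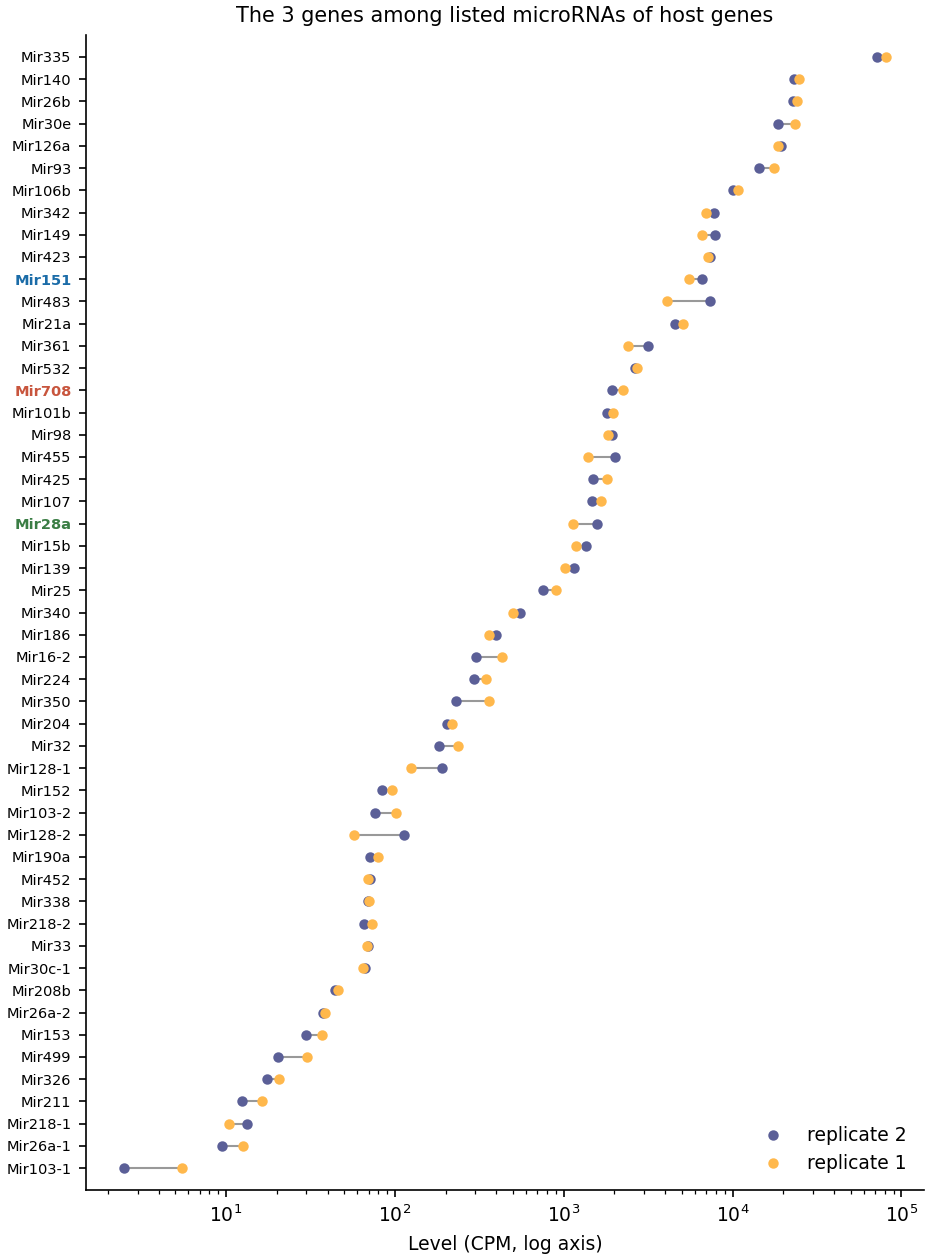
Level in CPM (x axis, log) of the 48 listed microRNAs and of Mir151, Mir708 and Mir28a (coloured names), with replicate 2 and replicate 1 as points joined by a line. Mir151 lies in the upper part of the list, and Mir708 and Mir28a lie together below it.

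Between the libraries the 3 genes did not move one way. Mir28a was higher in replicate 2, by 1.40 times, with a log2 ratio of replicate 2 over replicate 1 of 0.48 (SE 0.028, counting error). Mir151 was higher in replicate 2 by 1.19 times (log2 ratio 0.26, SE 0.013). Mir708 was lower in replicate 2, with a log2 ratio of -0.21 (SE 0.022).

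A two-sided exact binomial test with Benjamini-Hochberg adjustment over all 436 genes with 10 counts or more called all 3, with adjusted p of 7.26e-67 for Mir28a, 3.29e-84 for Mir151 and 5.07e-20 for Mir708. It compares these 2 libraries with counting error alone. The same test called 41.7% of the genes, 20.4% as higher and 21.3% as lower in replicate 2, so a call was common. Among the 285 genes with 100 counts or more, the range of all 3 members, it called 62.1%, and with no filter it called 24.3% of 717 genes. The ratios of the 189 genes at 100 CPM or more had an SD of 0.32 on the log2 scale. Mir151 and Mir708 lay within that spread, and Mir28a lay outside 1 SD, with 27 of the 189 genes further from 0. In edgeR's negative binomial exact test, which takes the spread between the same libraries into account (biological coefficient of variation 16.4%, against a coefficient of variation of 23.5% for Mir28a, 12.5% for Mir151 and 10.2% for Mir708), the adjusted p was 0.956 for Mir28a and 1 for Mir151 and for Mir708. That test called 0 of 436 genes, with 25 at an unadjusted p under 0.05. It estimates the spread from the very differences it tests, as if no gene differed, so it misses real changes when many genes change, and its 0 calls do not show that the libraries are alike. The labels call the libraries biological replicates, each a separate pool.

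**Figure D5:**
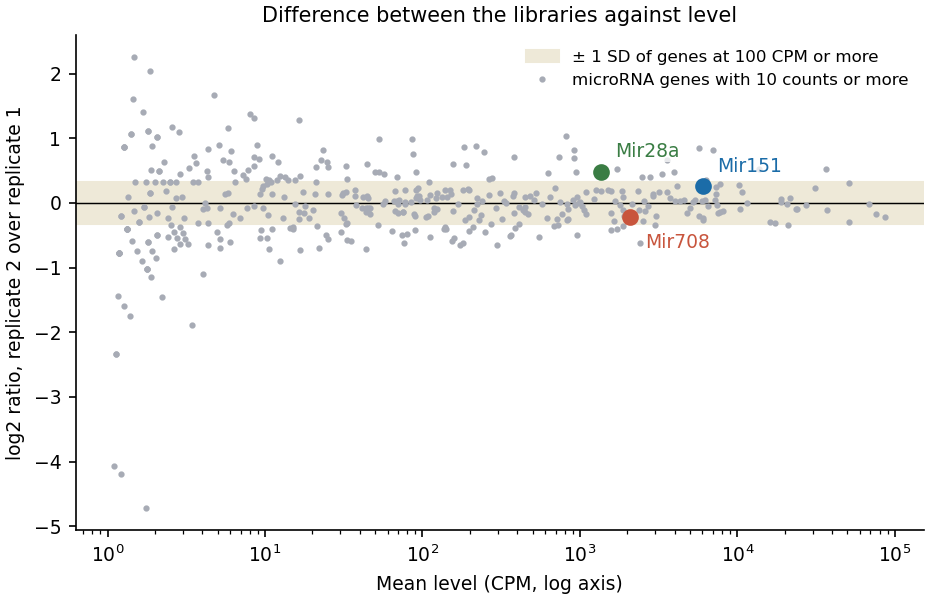
Log2 ratio of replicate 2 over replicate 1 (y axis) against mean CPM (x axis, log) for the 436 genes with 10 counts or more, with a band of 1 SD (0.32) of the genes at 100 CPM or more. Mir28a (0.48) lies above the band, and Mir151 (0.26) and Mir708 (-0.21) lie inside it on either side of 0.

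On the opposite strand, Mir151 and Mir28a had 0 counts in both libraries. For Mir151 this allows a share of up to 0.0126% of its counts in replicate 2 and 0.012% in replicate 1, and for Mir28a up to 0.0527% in replicate 2 and 0.0587% in replicate 1. Mir708 differed from them with 21 opposite-strand counts in replicate 2, or 0.299% (0.185 to 0.457) of its counts on both strands, and 34 in replicate 1, or 0.333% (0.231 to 0.466). These intervals lie above the limits of Mir151 and Mir28a. Over all gene rows the opposite strand held 2.62% in replicate 2 and 2.39% in replicate 1. Among the 1862 rows with no microRNA gene annotated on the other strand it held 0.00388% in replicate 2 and 0.00456% in replicate 1. In those rows Mir708 had the next highest opposite-strand level after Mir203, which had 77 counts in replicate 2 and 84 in replicate 1, and Mir708 gave 15.7% of all such counts in replicate 2 and 17.3% in replicate 1.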

How the data were processed

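Small RNA of limb tissue was sequenced in 2 libraries. Values are whole read counts for each microRNA gene, as deposited. Per the README deposited with each library, the authors used mm10 and GENCODE M4, with aligner, counter and trimming not given in the sources used here. The 3 count columns were both strands, own strand and opposite strand, and the first equalled the sum of the others in every gene row. Own-strand counts over 1973 gene rows were scaled to CPM. The 4 rows for reads without a gene were kept out of totals (23.7% and 27.2% of reads mapped to several places, 32.6% and 23.8% were unmapped, and 6.70% and 6.49% lay outside genes, in replicate 2 and replicate 1; 0 were ambiguous). Replicate 2 held 9738708 reads and replicate 1 held 10646293. Identifiers were matched without version to GENCODE M21 (GRCm38, the assembly called mm10): 1894 rows matched, all 3 members among them, and 79 did not, with 2 counts in replicate 2 and 1 in replicate 1. For each host the coding transcript that spans the hairpin was taken, by principal tag, then CCDS tag, then length. A shared stretch is 20 nucleotides or more, on either strand, in the hairpins of M21, which 929 rows had.

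With 1 library a side, edgeR's quasi-likelihood test has no residual degrees of freedom, so libraries were compared with the exact binomial test (threshold 0.05, 0.5 counts added for ratios) in scipy 1.17.1. edgeR 4.0.16 and DESeq2 1.42.0 in R 4.3.3 gave the alternatives. Both tests were tested on simulated data. For the binomial test the simulated counts held counting error alone, so calls that arise from spread between libraries were not tested. There it found most of the changes put in. The negative binomial test, with 1 dispersion estimated from the same 2 libraries, found most of them when few genes changed and none when many did. A count of 0 allows up to 3 counts. edgeR's test used TMM scaling. Named genes were the members, their neighbours in level, microRNAs in the same hosts or with the same seed or name, and, of the host list, the 5 highest and those within 1.5 times of a member. Gm23134, Nnat, Mir203, miR-7663-3p, Mir1a-1, Mir133b and Mir10a were named after their values were seen. The members and lists were chosen with earlier results of these data known. Of the list, Mir191 and Mir374 were not analysed here.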

Additional observations from a re-analysis of the deposited data

Results flagged for a closer look

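Reads on the strand opposite to Mir708 stood out because the levels reported above use the own strand, and both libraries held more opposite-strand counts than a count of 0 allows (3 counts). There were 21 in replicate 2 and 34 in replicate 1. Mir151 and Mir28a had 0. No microRNA gene is annotated on the other strand at Mir708. Gm23134, which shares 23 nucleotides with Mir708, had 0 opposite-strand counts in replicate 2 and 1 in replicate 1.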

How the results depend on the processing

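Of 90 recomputed values, 82 kept their direction and their side of the threshold or stayed within the spread or within 1.5 times. Among them were the levels of the 3 genes under TMM scaling, DESeq2 size factors, both strands and a total without the highest gene. TMM and DESeq2 scaling move the 2 libraries in opposite ways by the same factor, so mean levels could hardly have moved under them. The ratios of the 3 genes on both strands, their ranks, and their binomial calls under other scalings and filters were also kept. On both strands the ratio of Mir151 to Mir28a could not have moved, because both genes had 0 opposite-strand counts. For Mir708 that strand held 0.299% of its counts in replicate 2 and 0.333% in replicate 1, so its ratios could hardly have moved. The share of all genes called ran from 24.3% with no filter to 62.1% at 100 counts or more. The 82 also take in levels and ratios with 1 replicate left out, and the opposite-strand share of Mir708. With 2 replicates such values always lie within 1 SD of the mean, so they could not have moved. Log2 ratios with other counts added were labelled as kept without a comparison. Adding the counts of Gm23134 to Mir708, chosen after the data were seen, gave 2099.9 CPM. Reads that mapped to several places stay out of this sum, so it does not show how much the shared stretch matters. Per 1000000 reads of the whole library the levels moved to 532 for Mir28a, 2389 for Mir151 and 837 for Mir708, since gene counts are 37.0% of replicate 2 and 42.5% of replicate 1. The negative binomial test called 0 genes in place of 182 and ended the calls of all 3 members, since it adds the spread between the libraries, estimated from the same differences, so these lost calls are weak evidence of no difference. At 100 CPM in both libraries 30 listed host microRNAs were detected in place of 46. Leaving out replicate 1 put the ratio of Mir708 to Mir28a at 1.23 and leaving out replicate 2 put it at 1.99. No paired analysis was possible because there is 1 group. Depth was no limit for the members, at 5111 counts or more, but was for Mir28b.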

Other observations

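The 22 bases that miR-708-5p shares with Gm23134 also lie, on the other strand, in Nnat, the imprinted gene for neuronatin, a small membrane protein. This search was chosen after the shared stretch was seen. Among 141767 annotated transcripts of GENCODE M21, searched for 20 nucleotides or more complementary to an arm of Mir28a or Mir708 or to miR-28b, only transcripts of Nnat held such a stretch, for miR-708-5p. It lies in the 3′ untranslated region of Nnat-202, Nnat-205 and Nnat-210, 771 nucleotides past the stop codon (chr2:157562405-157562426, plus strand, mm10), and is complementary to bases 2 to 23 of miR-708-5p. The site is shown with the bases complementary to miR-708-5p in capitals, and the base opposite its first position in lower case.
Nnat: CCCAGCTAGATTGTAAGCTCCTg

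In human breast cancer cells neuronatin has been reported as a target of miR-708. Messenger RNA was not measured here, so whether Nnat is present in these limbs, or is cut or repressed, was not tested.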
